A study of Mus musculus with 9 samples.

Results

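The subject here is the level of every transcript that could be tested when C2C12 cells, a mouse myoblast line grown as undifferentiated muscle precursors, received an siRNA against Mbnl1 in place of a control siRNA. The comparison takes in 6 of the series' 9 arrays: 3 of Mbnl1 siRNA cells and 3 of control siRNA cells, each arm with 1 array per time, taken 0, 2.5 and 5 h into treatment with actinomycin D (5 ug/ml), a drug that blocks transcription. The other 3 arrays hold cells given an siRNA against Cugbp1 (current symbol Celf1) at the same times. The difference between the arms was taken within each time and averaged over the 3 times, so it is a mean difference in level. The 2.5 and 5 h arrays were taken after the block, so a difference in decay can enter this mean. All 9864 genes that passed an intensity filter were followed, out of 19938 genes with a probe set.

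Mbnl1 encodes muscleblind-like 1, an RNA-binding protein that recognises YGCY motifs through its zinc fingers and controls alternative splicing, polyadenylation, localisation and turnover of mRNAs. In myotonic dystrophy it is trapped on expanded CUG repeats, and part of the disease's splicing changes follow its loss of function. Celf1 acts on many of the same muscle transcripts, often in the opposite direction. Mbnl2 and Mbnl3 are paralogs, of which Mbnl2 can take over part of the work of Mbnl1.

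Values are log2 of the array intensity after RMA, a method that brings all arrays to a common distribution, so a difference is a shift against the rest of the transcriptome. A whole-transcript probe set sums a gene's isoforms and says nothing of splicing. Correlations across probe sets between Mbnl1 siRNA and control siRNA arrays lay between 0.980 and 0.993, and the median intensity of the 9 arrays lay between 104.92 and 113.01. There were no replicate arrays of any siRNA and time, and nothing in the labels says that arrays came from separate cultures, so p-values weigh a difference against how unevenly the siRNA effect ran over the times, which may be technical. An exact test over 3 time pairs alone could not go below p = 0.25. The siRNA sequences, their number and the time between transfection and harvest are unknown from the labels, so loss of Mbnl1 and any other effect of its siRNA cannot be told apart. Since the RNA is of whole cultures, fewer cells of a kind and less RNA per cell cannot be told apart either. With so few arrays the precision is limited.

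The targeted transcript was lower in the labelled arm. Mbnl1 stood at 10.24, 10.05 and 9.79 (log2 intensity at 0, 2.5 and 5 h) in Mbnl1 siRNA cells, against 12.43, 12.50 and 12.44 in control siRNA cells. The arms were far apart at each time, and the mean difference was -2.43 ± 0.09 (SE, limma, adjusted p = 1.63e-06), a 5.39-fold lower level. Each SE is that of the limma fit to all 9 arrays, with 3 arrays an arm. The difference was -2.19 at 0 h and -2.65 at 5 h, while under Cugbp1 siRNA Mbnl1 differed from control by -0.07 (adjusted p = 0.67). Among relatives, Celf1 fell by 0.59 (adjusted p = 0.000931), Celf2 by 0.51 (adjusted p = 4.19e-05) and Mbnl3 by 0.37 (adjusted p = 0.000366), each with arms that did not overlap. Celf1 fell by 2.03 under its own siRNA. Mbnl2 differed by 0.13 (adjusted p = 0.0237), a call that was lost when the 2.5 h Mbnl1 siRNA array (adjusted p = 0.11) or any of the control arrays (0.0532 to 0.11) was left out.

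The difference reached far beyond the target. Of all genes tested, 2372 were called higher under Mbnl1 siRNA (24.0%) and 3054 lower (31.0%), where a call is a Benjamini-Hochberg adjusted p under 0.05 in limma. Most differences were small: their median size across all genes tested, called or not and with the sign left out, was 0.153. Only 69 called genes were higher by more than 1 log2 unit (0.7%) and 78 lower by more than 1 (0.791%). Past 0.5 there were 404 higher (4.1%) and 623 lower (6.32%). Above 2 there were 9 genes higher and 1 lower, the target itself. Under a scaling that gives every array the same median over all tested genes the split turned, with 3244 genes called higher (57.4% of calls) and 2411 lower, against 43.7% of calls higher in the values as deposited. Small differences near 0 therefore have a sign that depends on scaling. At a single time, with no test, 79 genes were higher by more than 1 and 49 lower at 0 h, against 64 higher and 125 lower at 5 h.

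**Figure D1:**
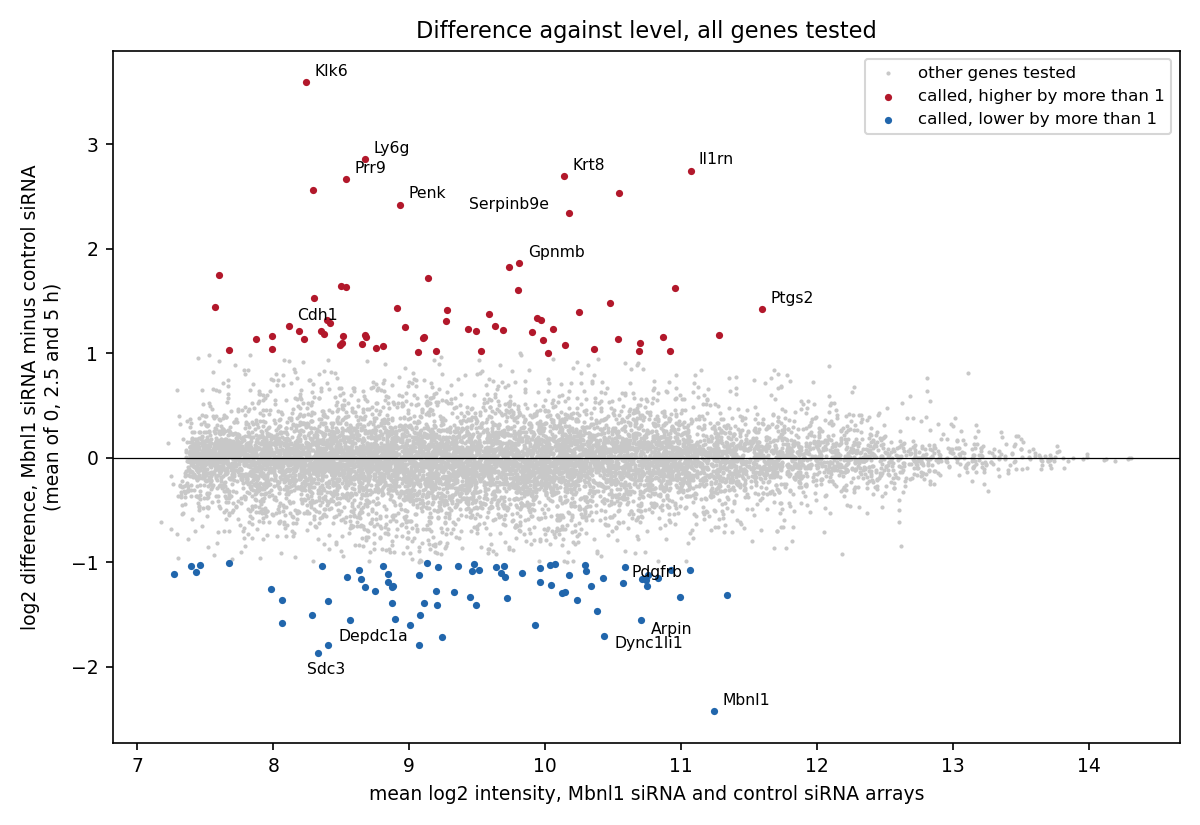
Log2 difference, Mbnl1 siRNA minus control siRNA, averaged over 0, 2.5 and 5 h, against the mean log2 intensity of the 6 arrays, 1 point per gene tested. The 69 genes called and higher by more than 1 are red, the 78 called and lower by more than 1 are blue; Klk6 lies farthest above 0 and Mbnl1 farthest below.

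The largest difference of all genes tested was that of Klk6, a secreted trypsin-like protease of the kallikrein family. It had 9.87, 9.97 and 10.27 in Mbnl1 siRNA cells, against 6.44, 6.43 and 6.46 in control siRNA cells. The difference was 3.59 ± 0.06 (SE; adjusted p = 5.23e-08). The control arrays lay below the filter value of 7.38, so Klk6 passed the filter through the Mbnl1 siRNA arm, and no fold is given against a reading not shown to be above background. Mmp10, a matrix metalloproteinase also called stromelysin 2, had 11.89, 11.83 and 11.70 in Mbnl1 siRNA cells and 9.40, 9.47 and 8.94 in control siRNA cells, with no overlap (difference 2.54, adjusted p = 1.19e-06). Mmp12, the elastase first known from macrophages, rose by 2.57 (adjusted p = 1.39e-05) with a control mean below the filter value. Serpinb9e, an intracellular serpin, rose by 2.34 (adjusted p = 1.22e-06). Plat, the tissue plasminogen activator, rose by 1.13, and Slpi, a secreted inhibitor of leukocyte proteases, by 1.21. Of 16 tested genes in a list of kallikreins, serpins and secreted proteases, 12 rose and 3 fell, where 24.0% of all genes rose and 31.0% fell. In the list that holds Mmp10 and Mmp12, metalloproteinases and their inhibitors, 7 of 17 rose and 6 fell, with a median of -0.0003, and the 7 became 4 without the 0 h control array. The 3 that fell in the list of kallikreins, serpins and secreted proteases included Serpinh1 (-0.99, adjusted p = 3.95e-06), the collagen chaperone.

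Krt8, the keratin of simple epithelia, had 11.36, 11.54 and 11.55 in Mbnl1 siRNA cells and 8.62, 8.98 and 8.77 in control siRNA cells. The arms were separated at every time by 2.56 or more (mean 2.69 ± 0.05, adjusted p = 5.23e-08), and under Cugbp1 siRNA Krt8 differed by 0.08. Cdh1, E-cadherin of epithelial junctions, rose by 1.26 (adjusted p = 2.56e-06), the tight junction genes Cldn4 by 0.74 (adjusted p = 0.00237) and Ocln by 0.44 (adjusted p = 0.00084). Across the list of keratins and simple epithelium, however, 5 of 14 tested genes rose and 2 fell (1 without the 2.5 or 5 h array of either arm), with a median of -0.003 beside -0.02 for all genes. The shares over all genes were 24.0% higher and 31.0% lower. Another 21 of the list's 35 genes with a probe set lay below the filter. Keratinocyte markers did not stand apart: 2 of 9 passed the filter, neither was called, and their summed intensity was 1033.1 to 1155.4 in Mbnl1 siRNA arrays and 1031.0 to 1096.7 in control siRNA arrays.

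Il1rn, the secreted antagonist of the interleukin 1 receptor, had 12.52, 12.36 and 12.45 in Mbnl1 siRNA cells and 9.68, 9.73 and 9.67 in control siRNA cells. Its arms were apart by 2.75 ± 0.05 (adjusted p = 6.96e-08), while Cugbp1 siRNA cells were lower than control by 0.36 (adjusted p = 0.00393). The direct Mbnl1 siRNA minus Cugbp1 siRNA difference of Il1rn was 3.11 (adjusted p = 5.6e-08). Ptgs2, the inducible cyclooxygenase of prostaglandin synthesis, had 12.63, 12.13 and 12.17 in Mbnl1 siRNA cells and 11.27, 10.60 and 10.79 in control siRNA cells. It was among the brightest risers (1.42, adjusted p = 1.59e-06). Pla2g7, which inactivates platelet-activating factor, rose by 1.64, and Penk, the enkephalin precursor, by 2.42 (adjusted p = 7.85e-07). Csf2rb, the receptor chain shared by interleukin 3, interleukin 5 and GM-CSF, rose by 1.34, Itgb8, an integrin subunit that activates latent TGF-beta, by 1.61, and Wnt7b, a secreted Wnt ligand, by 1.25. The lists around these genes held calls in both directions, where 24.0% of all genes rose and 31.0% fell. Of 8 interleukin 1 family genes 3 rose and 2 fell. Of 12 neuropeptide and neuronal genes 3 rose and 4 fell, shares near those of all genes. Of 24 Wnt genes 6 rose, a share near that of all genes, and 5 fell, a lower share.

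Ly6g and Prr9 were raised under both knockdowns. Ly6g, a surface protein best known as a neutrophil marker, had 9.83, 10.18 and 10.29 in Mbnl1 siRNA cells and 7.21, 7.40 and 7.12 in control siRNA cells (difference 2.86, adjusted p = 2.08e-06). Under Cugbp1 siRNA its difference was 1.40, and the 2 siRNAs differed by 1.46 (adjusted p = 3.07e-05). Prr9 rose by 2.66 under Mbnl1 siRNA and by less under Cugbp1 siRNA, with a tested difference of 1.17 (adjusted p = 1.97e-06). Both comparisons use the same control arrays. Ppargc1a, the coactivator that drives mitochondrial biogenesis, had 9.13, 8.15 and 7.60 in Mbnl1 siRNA cells and 7.26, 6.76 and 6.54 in control siRNA cells. It was the exception among the 30 largest rises: its differences of 1.44 under Mbnl1 siRNA and 1.10 under Cugbp1 siRNA were not told apart (0.34, adjusted p = 0.111). The other 29 were each called higher than under Cugbp1 siRNA too, a call made for 23.0% of all genes (56.4% in either direction), in a comparison that uses the same Mbnl1 siRNA arrays. The control means of Ly6g and Ppargc1a lay below the filter value of 7.38, so both genes passed it through the siRNA arms.

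The smallest of the 30 largest rises was that of Fabp3 at 1.29, and in all 30 the 3 Mbnl1 siRNA arrays lay above the 3 control siRNA arrays. Among all genes the arms did not overlap for 34.9%. The 30 rises were ranked by size on these same arrays, so their count is a description. Fabp3, the fatty acid binding protein of heart and skeletal muscle, had 8.89, 9.14 and 9.16 in Mbnl1 siRNA cells and 7.47, 7.94 and 7.91 in control siRNA cells. Tgm2, a protein crosslinking transglutaminase, rose by 1.30, Tcn2, which carries vitamin B12, by 1.32, and P3h2, a collagen prolyl hydroxylase, by 1.72. Plk3, a stress-responsive polo-like kinase, rose by 1.62, with 1.18 at 0 h and 1.96 at 5 h. For 6 of the 30 the control mean lay below the filter value, so their fold rests on a dim reading.

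**Figure D2:**
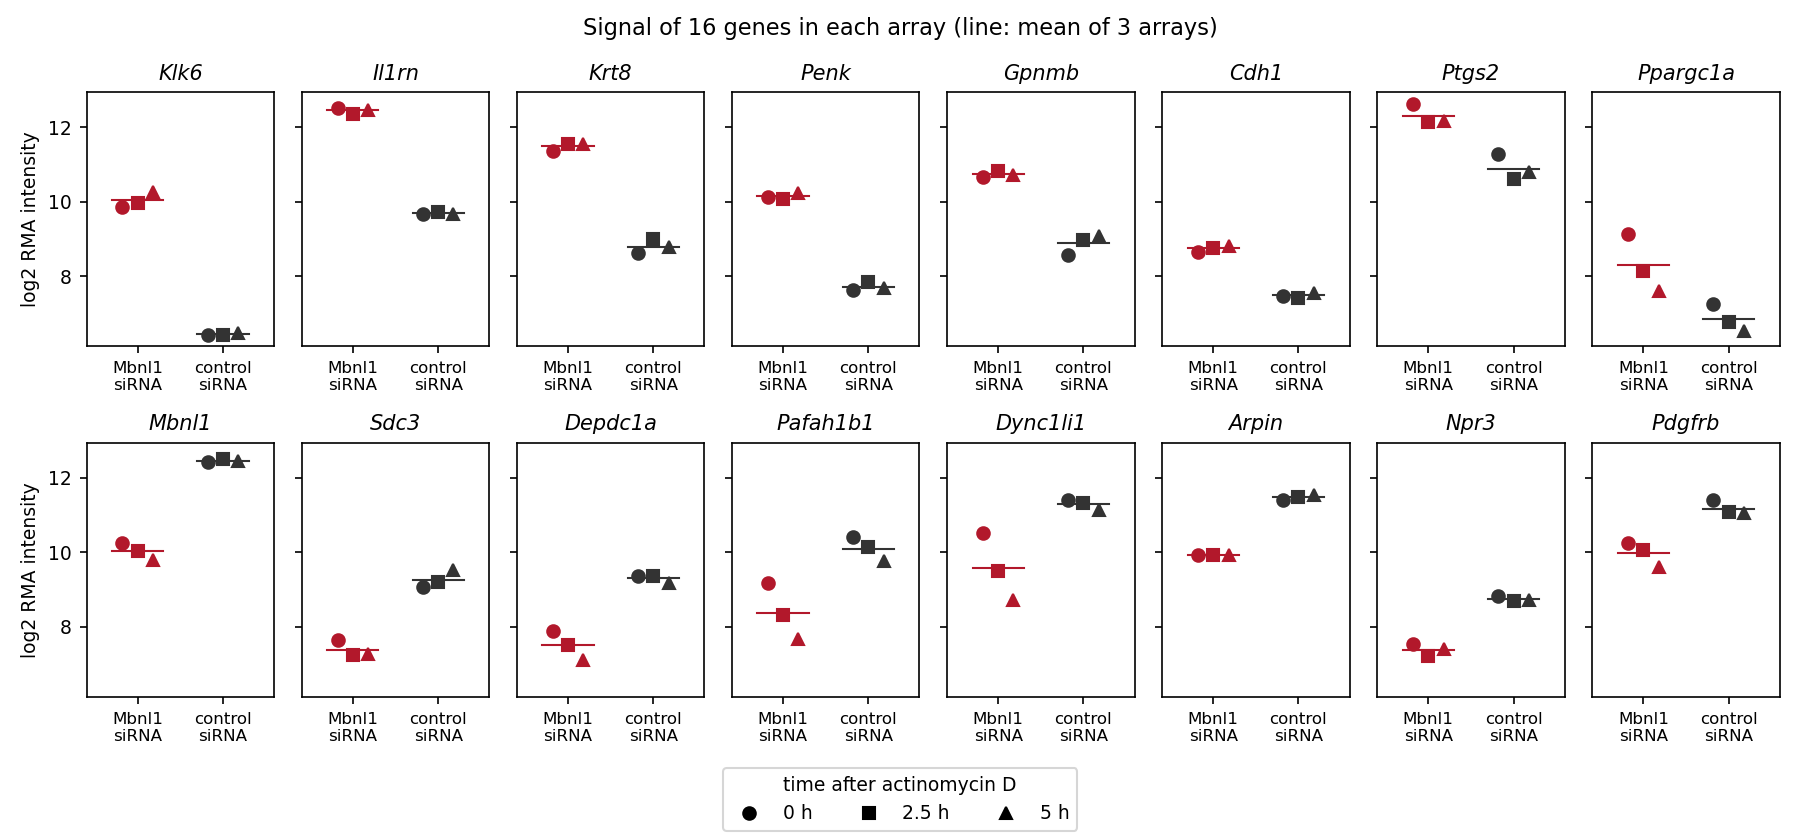
Log2 RMA intensity of 16 genes in each array, Mbnl1 siRNA (red) left of control siRNA (black), with 0, 2.5 and 5 h as circle, square and triangle and the line at the mean of 3 arrays. The upper 8 genes were higher under Mbnl1 siRNA by 1.26 (Cdh1) to 3.59 (Klk6), the lower 8 had differences from -1.20 (Pdgfrb) to -2.43 (Mbnl1), and in each the arms do not overlap.

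The largest fall after Mbnl1 itself was that of Sdc3, the heparan sulfate proteoglycan syndecan 3 of muscle precursors. It had 7.66, 7.24 and 7.28 in Mbnl1 siRNA cells and 9.07, 9.20 and 9.53 in control siRNA cells. The gap was -1.41 at 0 h and -2.25 at 5 h (mean -1.87 ± 0.15, adjusted p = 3.24e-05). Pafah1b1, the dynein regulator Lis1, had 9.17, 8.31 and 7.67 in Mbnl1 siRNA cells and 10.41, 10.13 and 9.76 in control siRNA cells (-1.72, adjusted p = 8.02e-05). Dync1li1, a light intermediate chain of cytoplasmic dynein, had 10.51, 9.50 and 8.72 in Mbnl1 siRNA cells and 11.40, 11.31 and 11.13 in control siRNA cells. Both dynein genes were lower in every Mbnl1 siRNA array than in any control array. Across 43 tested kinesin and dynein genes, however, 17 fell and 8 rose, beside 31.0% and 24.0% of all genes, with a median of -0.009. The number of rises became 18 when arrays were scaled to equal medians. Kif1a, a neuronal transport kinesin, rose by 0.93 and Kif15, a mitotic one, fell by 0.80.

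Arpin, an inhibitor of the Arp2/3 actin nucleator, had 9.92, 9.94 and 9.92 in Mbnl1 siRNA cells and 11.40, 11.48 and 11.55 in control siRNA cells. This was a flat and well separated fall of 1.55 ± 0.04 (adjusted p = 7.85e-07). Other falls were those of Nr1d2, the circadian repressor Rev-erb beta (-1.41, adjusted p = 2.01e-06), and Npr3, the clearance receptor for natriuretic peptides (-1.36, adjusted p = 1.21e-06), whose Mbnl1 siRNA mean lay just below the filter value. Mrpl36, of the mitochondrial ribosome, fell by 1.61, Mcur1, a regulator of mitochondrial calcium uptake, by 1.51, and Isca1, of iron-sulfur assembly, by 1.29. Pdgfrb, the receptor for platelet-derived growth factor B, had 10.26, 10.05 and 9.62 in Mbnl1 siRNA cells and 11.40, 11.08 and 11.04 in control siRNA cells (-1.20, adjusted p = 6.96e-06). In 29 of the 30 largest falls the arms did not overlap. Tbx15, a limb and muscle transcription factor, was the exception, with 8.89, 7.04 and 7.21 in Mbnl1 siRNA cells and 9.99, 8.84 and 8.44 in control siRNA cells. Each of the 30 was also called lower than under Cugbp1 siRNA, a call made for 33.4% of all genes. The 30 were ranked on the same Mbnl1 siRNA arrays, so both counts are descriptions.

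The differences were followed over the hours without transcription. The median difference of the 30 largest rises was 1.62, 1.69 and 1.65 at 0, 2.5 and 5 h, and 16 of them were further from control at 5 h than at 0 h. The median of the 30 largest falls was -1.20, -1.54 and -1.64, and all 30 were further from control at 5 h. These genes were ranked on the mean over the same times, so this is a description. Testing the change of the difference per hour called 2 of 9864 genes (0.0203%). Dync1li1 lost 0.304 per hour relative to control (adjusted p = 0.0279), with differences of -0.89, -1.82 and -2.41. Ctns, the lysosomal cystine transporter, lost 0.300 per hour (adjusted p = 0.0279) and is named because it was the other call, after its values were seen. Its level fell by 1.16 on average (adjusted p = 0.00537). The model of that test has 2 residual degrees of freedom.

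**Figure D3:**
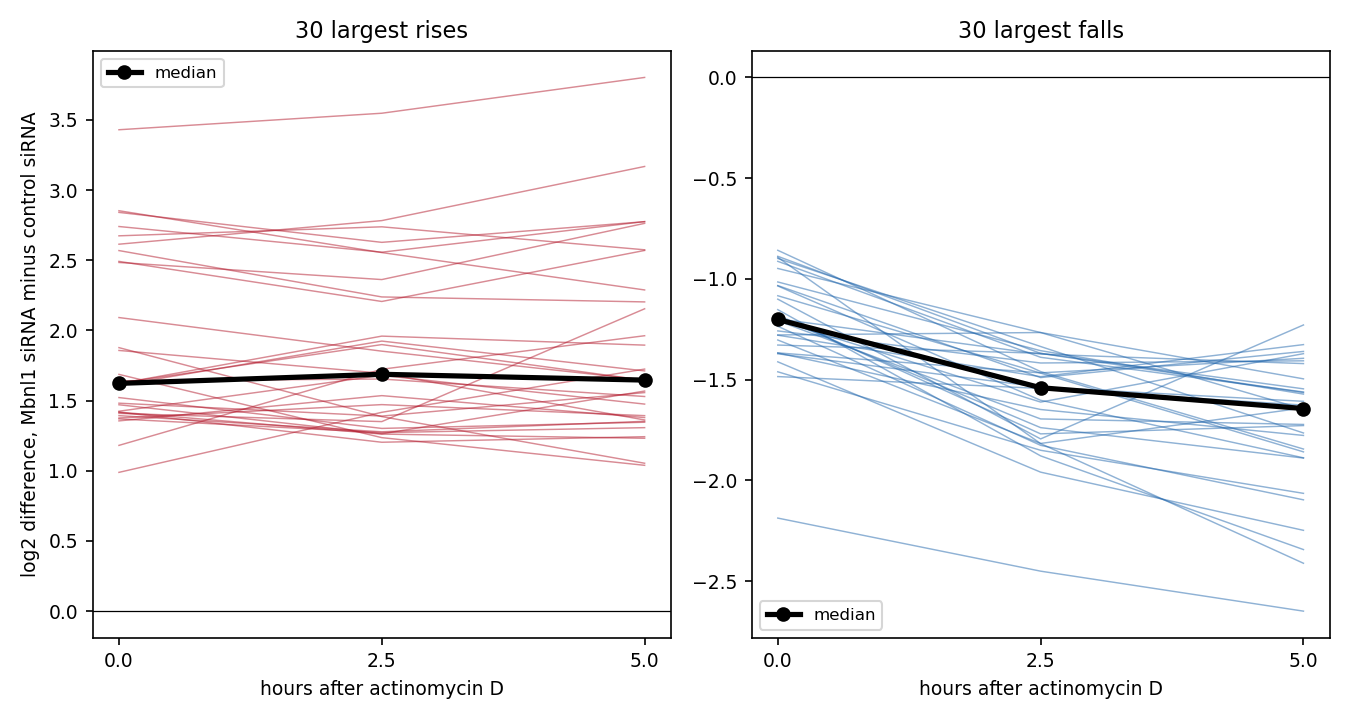
Log2 difference, Mbnl1 siRNA minus control siRNA, at 0, 2.5 and 5 h after actinomycin D for the 30 largest rises (left) and the 30 largest falls (right), 1 thin line per gene and the median in black. The median stays between 1.62 and 1.69 on the left and goes down to -1.64 at 5 h on the right, where the lowest line is Mbnl1.

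Nearly all tested genes of 5 cell cycle and repair lists fell. Of 28 tested genes of the chromosome passenger complex, cohesin and condensin, 28 fell, with a median of -0.54, and of 34 kinetochore and spindle checkpoint genes 33 fell (median -0.59). For mitotic exit and cytokinesis 30 of 32 fell (median -0.57), for replication origins and forks 45 of 48 (median -0.39), and for homologous recombination and the Fanconi anaemia pathway 26 of 30 (median -0.52). No gene of these 5 lists rose, while over all genes 24.0% rose and 31.0% fell. Knl1, the scaffold of the outer kinetochore, had 9.94, 9.74 and 9.58 in Mbnl1 siRNA cells and 11.01, 10.80 and 10.71 in control siRNA cells (-1.08, adjusted p = 6.99e-06). Cep55, which recruits the abscission machinery to the midbody, had 9.11, 9.11 and 9.30 in Mbnl1 siRNA cells and 10.12, 10.30 and 10.23 in control siRNA cells (-1.04, adjusted p = 4.3e-06). Neither gene's arms overlapped. Depdc1a (-1.79) and Pimreg (-1.60), both mitotic, were among the 30 largest falls of all.

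The replication list was led by Pola1, which makes the primers as part of DNA polymerase alpha (-0.84, adjusted p = 6e-06), Rfc4 of the clamp loader (-0.78) and Clspn, the mediator of the replication checkpoint (-0.77). Among repair genes H2ax, the histone variant marked at double-strand breaks, fell by 1.19 (adjusted p = 7.1e-05) but was higher than control by 0.72 under Cugbp1 siRNA. Rad51c fell by 1.09 with a Mbnl1 siRNA mean below the filter value, and Brca2 fell by 0.85. In the list of cyclins and E2F factors 20 of 29 fell, led by Ccnb2 (-0.80), Mybl2 (-0.73) and Foxm1 (-0.72), a driver of mitotic gene expression. Ccnd2 was called higher there (0.14). The count of genes called higher became 0 without the 5 h control array and 2 without the 0 h array of either arm. Ccnd1 fell by 0.25 (adjusted p = 0.000385). Nucleotide supply had 12 falls in 18 tested genes and nuclear pore and import 28 in 35, with Xpo1, the main exportin, at -0.67. Without the time factor 16 of the nuclear pore genes and 17 of the recombination genes were called lower.

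Under Cugbp1 siRNA, against the same control arrays, the calls in these lists were as follows: 2 of 34 lower in the kinetochore list, 3 in each of the passenger and mitotic exit lists, 5 of 48 in the replication list and 5 of 30 in the recombination list. Over all genes 8.67% were called lower there. Of the cyclins and E2F factors 8 of 29 were called lower under Cugbp1 siRNA. Of the kinetochore genes 31 were called lower under Mbnl1 siRNA than under Cugbp1 siRNA. The medians were closer to 0 at 5 h than at 0 h in all 5 lists, for example -0.44, -0.35 and -0.31 at 0, 2.5 and 5 h for replication. How many cells were dividing was not measured.

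**Figure D4:**
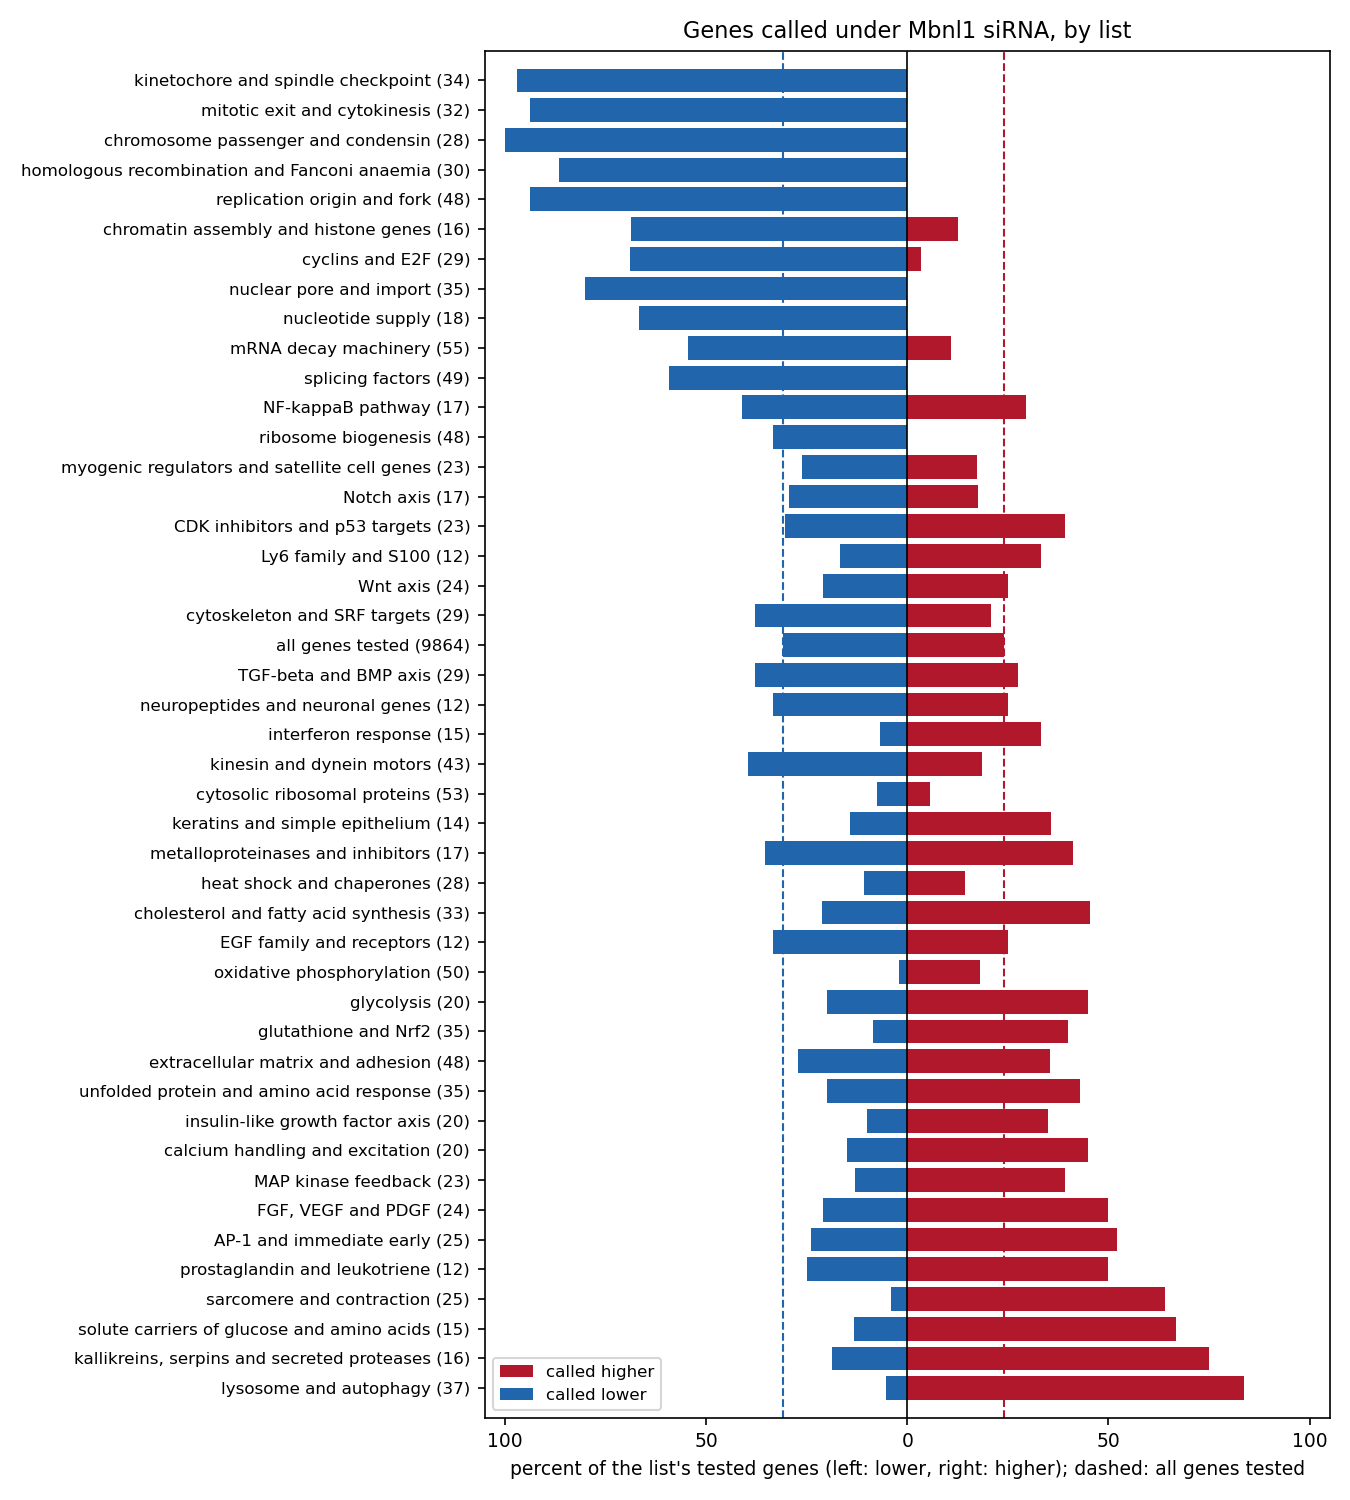
Percent of tested genes called lower (blue, left) or higher (red, right) under Mbnl1 siRNA, for lists with 12 or more tested genes, ordered by the median difference, with the number tested in brackets. The dashed lines mark 31.0% lower and 24.0% higher for all 9864 genes tested; mitotic lists lie at the top and lysosomal genes at the bottom.

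Promoters of these genes are shown because motif letters are a feature that the array values did not use. Windows of 300 bases, from 250 before to 50 after the start, come from RefSeq on GRCm38.p6, with 1 window per gene and both strands searched. The cell cycle homology motif TTTGAA, bound by the MuvB complexes that act in late cell cycle, was in 18 of 26 mitotic exit windows (69.2%), 10 of 22 passenger and condensin windows (45.5%) and 13 of 31 kinetochore windows (41.9%). It was in 11.2% of the windows of all genes tested and 18.1% of all windows of the table. The E2F-type motif TTTGGCG was in 10 of 39 replication windows (25.6%), against 2.82% of those of all genes tested and 1.59% of all windows. These shares describe the lists whether or not a gene was called, and a match is no evidence of binding. Capitals mark the match in the windows of Depdc1a (plus strand, chr3:159495183-159495482, TTTGAA from position -16 relative to the start), Cep55 (plus strand, chr19:38054734-38055033, from 24), Pola1 (minus strand, chrX:93632106-93632405, TTTGGCG from -137) and Clspn (plus strand, chr4:126556730-126557029, from -120); in all 4 the match is on the opposite strand to the gene and so reads as its reverse complement.
Depdc1a: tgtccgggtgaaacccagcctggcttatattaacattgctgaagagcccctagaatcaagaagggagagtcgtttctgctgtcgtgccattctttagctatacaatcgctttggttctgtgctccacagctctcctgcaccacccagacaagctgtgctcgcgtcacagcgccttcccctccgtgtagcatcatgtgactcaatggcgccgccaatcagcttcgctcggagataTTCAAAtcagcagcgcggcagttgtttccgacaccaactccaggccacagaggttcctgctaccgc
Cep55: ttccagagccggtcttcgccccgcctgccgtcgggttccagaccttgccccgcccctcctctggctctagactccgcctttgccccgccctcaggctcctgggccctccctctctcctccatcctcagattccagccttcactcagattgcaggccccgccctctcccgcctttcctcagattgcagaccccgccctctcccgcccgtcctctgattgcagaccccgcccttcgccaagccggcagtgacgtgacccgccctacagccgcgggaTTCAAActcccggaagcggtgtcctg
Pola1: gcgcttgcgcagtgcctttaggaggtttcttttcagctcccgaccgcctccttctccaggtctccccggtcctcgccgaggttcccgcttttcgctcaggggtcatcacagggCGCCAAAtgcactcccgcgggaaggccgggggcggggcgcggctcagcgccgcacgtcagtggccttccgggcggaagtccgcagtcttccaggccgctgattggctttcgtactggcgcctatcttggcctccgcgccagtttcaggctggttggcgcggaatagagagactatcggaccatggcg
Clspn: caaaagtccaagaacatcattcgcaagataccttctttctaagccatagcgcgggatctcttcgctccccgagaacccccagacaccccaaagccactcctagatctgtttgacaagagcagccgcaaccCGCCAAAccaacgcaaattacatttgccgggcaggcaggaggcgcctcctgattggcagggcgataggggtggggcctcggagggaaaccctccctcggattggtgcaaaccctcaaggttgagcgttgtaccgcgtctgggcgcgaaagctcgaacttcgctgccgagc

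Most genes of the lysosome list rose. Of 37 tested lysosome and autophagy genes, 31 rose and 2 fell, where 24.0% of all genes rose and 31.0% fell. The list's median was 0.32 beside -0.02 for all genes, and its medians at 0, 2.5 and 5 h were 0.33, 0.34 and 0.31. Gpnmb, a lysosomal and melanosomal glycoprotein, had 10.67, 10.83 and 10.72 in Mbnl1 siRNA cells and 8.58, 8.98 and 9.08 in control siRNA cells. It rose by 1.86 under Mbnl1 siRNA and by 1.21 under Cugbp1 siRNA, with a tested difference of 0.65 (adjusted p = 0.000209). Cd68, a lysosomal membrane protein, had 9.50, 9.73 and 9.83 in Mbnl1 siRNA cells and 8.37, 8.60 and 8.63 in control siRNA cells (1.15, adjusted p = 8.52e-07). Gla, the alpha-galactosidase missing in Fabry disease, had 11.09, 11.20 and 11.12 in Mbnl1 siRNA cells and 10.29, 10.25 and 10.15 in control siRNA cells (0.90, adjusted p = 4.38e-06). None of these arms overlapped.

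Rises extended over enzymes, the proton pump and autophagy. Neu1, the lysosomal sialidase, rose by 0.88 (adjusted p = 5.53e-06). Beyond the rule for naming genes, and chosen after their values were seen, Gaa, the acid glucosidase missing in Pompe disease, rose by 0.85, Hexa by 0.60, the protease Ctsd by 0.59, and the vacuolar ATPase subunits Atp6v1h and Atp6v0d1 by 0.86 and 0.67. The autophagy genes Map1lc3b and Gabarapl1 rose by 0.43 and 0.33. The 2 of the list that fell were Atg5 (-0.31) and Scarb2 (-0.18). Ctns, a lysosomal transporter that the list does not hold, fell by 1.16 (adjusted p = 0.00537). Tfeb, the transcription factor of lysosomal genes, differed by 0.04 (adjusted p = 0.56). In Cugbp1 siRNA cells 12 of the 37 were called higher and 1 lower, where 10.5% and 8.67% of all genes were. Of the 37, 26 were called higher under Mbnl1 siRNA than under Cugbp1 siRNA, a call made for 23.0% of all genes. Without the time factor 20 of the 37 were called higher.

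Since Cd68 and Gpnmb are also abundant in macrophages, leukocyte markers are given beside them. Of 9 such markers with a probe set only Cd68 passed the filter. Their summed intensity, with Cd68 included, was 1153.3 to 1393.9 in Mbnl1 siRNA arrays and 753.0 to 841.1 in control siRNA arrays. Cd68 itself had means of 9.69 and 8.53 in Mbnl1 siRNA and control siRNA arrays, so the sum is no measure apart from it. The means of Ptprc, 5.64 and 5.68, and of Adgre1, 5.35 and 5.27, lay below the filter value. The CLEAR-type motif TCACGTG, bound by Tfeb and its relatives, was in 9 of 30 windows of the lysosome list, against 6.57% of the windows of all genes tested and 3.84% of all windows. This motif was chosen after the lysosomal result had been seen. Its core is a palindrome, so matches on both strands can overlap. The windows of Gla (minus strand, chrX:134600956-134601255, 4 matches in 2 stretches, the first from -228 and the last from -194) and Gaa (plus strand, chr11:119267713-119268012, from -141) show it in capitals.
Gla: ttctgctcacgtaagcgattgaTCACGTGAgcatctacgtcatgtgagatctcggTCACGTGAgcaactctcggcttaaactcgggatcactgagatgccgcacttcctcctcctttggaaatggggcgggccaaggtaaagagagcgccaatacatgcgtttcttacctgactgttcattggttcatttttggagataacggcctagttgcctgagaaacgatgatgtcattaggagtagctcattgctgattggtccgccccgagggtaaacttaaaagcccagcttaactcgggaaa
Gaa: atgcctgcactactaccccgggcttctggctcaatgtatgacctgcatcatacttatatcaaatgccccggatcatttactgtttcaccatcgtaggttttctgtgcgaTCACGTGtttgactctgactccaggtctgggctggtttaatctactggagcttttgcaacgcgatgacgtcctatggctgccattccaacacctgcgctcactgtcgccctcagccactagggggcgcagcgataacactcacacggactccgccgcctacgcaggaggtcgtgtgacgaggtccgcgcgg

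For the top rises the AP-1 site TGANTCA is given, a motif searched in every gene group and not only in these rises. Like the other tests, it was chosen with earlier results of these data known. It was in 4 of the 25 windows of the 30 largest rises, against 4.52% of the windows of all genes tested and 7.93% of all windows of the table, and in 1 of 22 windows of the 30 largest falls (4.55%). The motif was also in 5 of 30 windows of the lysosome list, so it did not set the top rises apart. The windows of Il1rn (plus strand, chr2:24336610-24336909, from -141) and Prr9 (minus strand, chr3:92123898-92124197, from -138) show it in capitals, because their differences were the largest among the rises that hold it.
Il1rn: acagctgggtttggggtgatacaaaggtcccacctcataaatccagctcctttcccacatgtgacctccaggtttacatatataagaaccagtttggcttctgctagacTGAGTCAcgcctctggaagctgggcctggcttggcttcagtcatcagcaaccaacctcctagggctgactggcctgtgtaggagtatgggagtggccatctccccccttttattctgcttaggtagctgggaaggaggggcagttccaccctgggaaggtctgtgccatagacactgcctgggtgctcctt
Prr9: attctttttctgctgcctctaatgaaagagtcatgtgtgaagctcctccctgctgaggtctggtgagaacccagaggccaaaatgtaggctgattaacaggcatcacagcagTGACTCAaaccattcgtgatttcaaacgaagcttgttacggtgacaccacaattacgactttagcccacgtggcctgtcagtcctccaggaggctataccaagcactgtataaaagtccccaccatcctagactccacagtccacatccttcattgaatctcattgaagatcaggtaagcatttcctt

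Of AP-1 and immediate early genes themselves 13 of 25 were called higher and 6 lower, beside 24.0% and 31.0% of all genes, with a median of 0.17. Atf3, a stress-induced AP-1 partner, had 10.09, 9.07 and 8.91 in Mbnl1 siRNA cells and 9.35, 8.35 and 8.20 in control siRNA cells, higher by 0.72 or more at each time although the arms overlap across times. Jun differed by 0.03 (adjusted p = 0.71) and Fosl1 by 0.08 (adjusted p = 0.32). Without the time factor 1 was called higher and 1 lower. The number called higher also moved with single arrays: it was 8 without the 0 h or the 2.5 h Mbnl1 siRNA array, and 8, 6 and 7 without the control array of 0, 2.5 and 5 h. Myc was higher by 0.36 (adjusted p = 0.0165), with no call when the 2.5 or 5 h array of either arm was left out (adjusted p 0.0651 to 0.0821). The share of windows with CCAAT or GGGCGG was 20.0% and 36.0% among the top rises, against 38.6% and 68.4% among genes tested and 37.9% and 35.9% among all 27025 windows of the table.

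**Figure D5:**
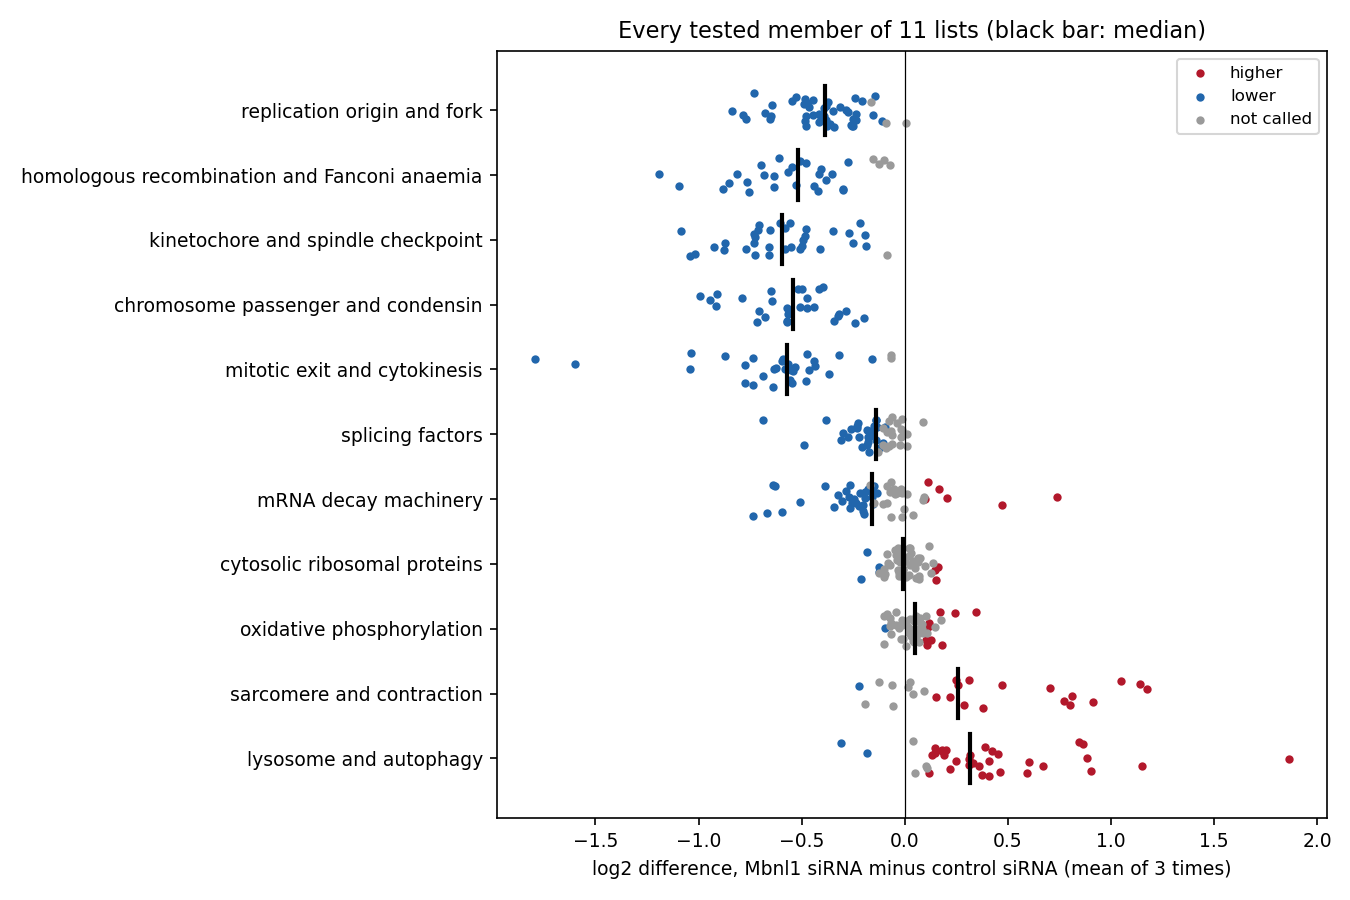
Log2 difference, Mbnl1 siRNA minus control siRNA, of every tested member of 11 lists, 1 point per gene, red where called higher, blue where called lower and grey where not called, with a black bar at the list's median. Medians run from -0.59 for the kinetochore list to 0.32 for the lysosome list, and cytosolic ribosomal proteins centre at -0.008.

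Muscle genes did not move as a block. Of 25 tested sarcomere genes 16 rose and 1 fell (3 without the 5 h Mbnl1 siRNA array), where 24.0% of all genes rose and 31.0% fell. The list's median was 0.26, while 19 more lay below the filter in these undifferentiated cells. Pdlim3, a Z-disc protein, had 11.99, 11.92 and 11.69 in Mbnl1 siRNA cells and 10.74, 10.77 and 10.57 in control siRNA cells (1.17, adjusted p = 1.19e-06). The troponins Tnni1 (1.14, with a control mean below the filter value) and Tnnt3 (1.05) and the M-band gene Myom2 (0.91) followed, all with arms that did not overlap. Under Cugbp1 siRNA 2 sarcomere genes were called higher and 3 lower, where 10.5% and 8.67% of all genes were. The myogenic factors Myod1 and Myf5 were not called higher under Mbnl1 siRNA. Myod1, the determination factor of muscle, had 10.30, 9.82 and 9.30 in Mbnl1 siRNA cells and 10.76, 10.40 and 9.99 in control siRNA cells, lower at each time (-0.58, adjusted p = 5.39e-05) in arms that overlap across times.

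Cdh15, M-cadherin, fell by 0.58 (adjusted p = 2.38e-05). Myf5 differed by 0.0029 (adjusted p = 0.958), and Myog, the differentiation factor, stayed below the filter with means of 6.56 and 6.78 in Mbnl1 siRNA and control siRNA arrays. Of the 23 tested regulators 4 rose (17.4%) and 6 fell (26.1%), both shares below those of all genes (24.0% and 31.0%). In the list of calcium handling and excitation 9 of 20 rose and 3 fell, led by Ckm, the muscle creatine kinase (0.64), and Ryr1, the calcium release channel (0.51). Summed over 9 myoblast markers the intensity was 24312.6 to 25167.0 in Mbnl1 siRNA arrays and 25951.6 to 26544.6 in control siRNA arrays, and 8 of the 9 passed the filter.

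Genes that act on RNA, where Mbnl1 itself works, were mostly slightly lower, while 31.0% of all genes fell and 24.0% rose. Of 49 tested splicing factor genes 29 fell and 0 rose (1 without the 0 h control array), with a median of -0.14, but the count was 18 under either scaling to equal medians and 9 without the time factor. Hnrnph2 led with 9.92, 9.85 and 9.49 in Mbnl1 siRNA cells and 10.40, 10.45 and 10.48 in control siRNA cells (-0.69, adjusted p = 0.000764). Hnrnpr fell by 0.49 and Hnrnpa0 by 0.38. Qk, another splicing regulator of muscle, fell by 0.31 at its brightest probe set and differed by 0.02 in the median over its probe sets. Of 55 mRNA decay genes 30 fell and 6 rose (median -0.16). Exosc5, a subunit of the RNA exosome, fell by 0.74 (adjusted p = 1.96e-05), and the Argonautes Ago2 and Ago3, which carry microRNAs, fell by 0.67 and 0.64. Tob1, an antiproliferative protein that recruits deadenylases, was higher by 0.74 (adjusted p = 0.000342). The 6 rises became 2 or 3 when any array but the 5 h Mbnl1 siRNA array was left out.

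Housekeeping lists stood near 0. Of 53 cytosolic ribosomal protein genes 3 were called higher and 4 lower, with a median of -0.008. The 3 became 1 without the 0 or 5 h array of either arm, and the 4 became 2 without the 0 or 2.5 h control array. With arrays scaled to equal medians 12 were called higher and 2 lower, and without the time factor 0 and 0. Actb differed by -0.01 (adjusted p = 0.844) and Hprt by 0.05 (adjusted p = 0.442). In ribosome biogenesis 16 of 48 fell (33.3%, near the 31.0% of all genes) and 0 rose, where 24.0% of all genes rose. The largest fall was that of Ubtf, a factor of RNA polymerase I (-0.51, adjusted p = 2.38e-05). Without the 0 h array of either arm 2 ribosome biogenesis genes were called higher.

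Growth factor and matrix lists held calls in both directions, to be read beside 24.0% higher and 31.0% lower for all genes. Of 24 genes of the FGF, VEGF and PDGF families 12 rose and 5 fell, of 29 in the TGF-beta and BMP axis 8 rose and 11 fell, and of 48 matrix and adhesion genes 17 rose and 13 fell. The shares in the TGF-beta and matrix lists were near those of all genes. Without the time factor 4 of the FGF, VEGF and PDGF genes were called higher and 2 lower, and 3 and 6 of the TGF-beta genes. Dcn, the proteoglycan decorin, had 11.11, 11.09 and 11.11 in Mbnl1 siRNA cells and 9.90, 9.86 and 10.14 in control siRNA cells (1.14, adjusted p = 3.95e-06). It was flat in the Mbnl1 siRNA arm and lower in every control array. Has2, the hyaluronan synthase, rose by 0.86 and Thbs1, thrombospondin 1, by 0.81, while the collagens Col1a1 and Col3a1 fell by 0.45 and 0.44. Dcn, Col1a1 and Col3a1 are also fibroblast markers. The summed intensity of 10 such markers was 4795.9 to 4842.7 in Mbnl1 siRNA arrays and 4287.4 to 4577.0 in control siRNA arrays. Dcn itself had means of 11.105 and 9.966 in Mbnl1 siRNA and control siRNA arrays, so the sum is no measure apart from it. Of the 4 fibroblast markers that passed the filter, 1 was called higher and 3 lower. The part of other cells in these values was not tested. Pappa, a protease that frees insulin-like growth factor, rose by 1.17 and Jag1, a Notch ligand, by 0.72 under Mbnl1 siRNA and 0.65 under Cugbp1 siRNA.

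Inflammatory lists held calls in both directions. Of 10 cytokines and chemokines that passed the filter 4 fell and 1 rose. The 4 became 2 without the 2.5 or 5 h control array. The 1 became 0 without the 2.5 or 5 h Mbnl1 siRNA array or the 0 or 2.5 h control array, and 2 without the 0 h Mbnl1 siRNA array. Ccl2, the monocyte chemoattractant, was lower by 0.82 (adjusted p = 8.72e-06). In the NF-kappaB list 5 of 17 rose and 7 fell. In the interferon list 5 of 15 rose, led by Irgm1 (0.67) and Isg20 (0.63), and 1 fell, Ifit2 (-0.38). Without the 0 h Mbnl1 siRNA array 2 interferon genes fell. The interferon median was -0.01 beside -0.02 for all genes, and only 15 of the 32 genes with a probe set passed the filter. For all genes the shares were 24.0% and 31.0%, near those of the NF-kappaB list, and without the time factor 1 NF-kappaB gene was called higher and 3 lower, and 2 interferon genes higher. Il1f9, an interleukin 1 relative, had 8.94, 8.80 and 8.63 in Mbnl1 siRNA cells and 7.49, 7.76 and 7.71 in control siRNA cells. Its difference of 1.14 was close in size to the 1.12 under Cugbp1 siRNA, and the 2 siRNAs were not told apart (0.02, adjusted p = 0.893).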

How the data were processed

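Total RNA of C2C12 cells was labelled with biotin and hybridised to Affymetrix whole-transcript sense arrays, per the labels' protocols. The submitters' processing notes name RMA and Affymetrix Expression Console, without versions. What was deposited is an intensity whose range fits a linear scale, not a log one, so log2 was applied before any fit.

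Of 35556 probe sets, 21789 have 1 gene symbol, 1621 several and 12146 none in the platform annotation. Probe sets with 1 symbol and a mean log2 of at least 7.38 (the 50th percentile) were kept, and the brightest was used for a gene, which gave 9864 genes. Linear models with moderated variances (limma 3.58.1, R 4.3.3) were fitted to all 9 arrays with siRNA and time as factors, leaving 4 residual degrees of freedom, so that the time factor pairs the arms. The contrasts were Mbnl1 minus control, Mbnl1 minus Cugbp1 and Cugbp1 minus control. A second model added a line in hours per siRNA. P-values were adjusted over all genes by Benjamini-Hochberg. The fit was tested on simulated data. Named genes were the 30 largest rises and falls with the same sign at each time, the 4 largest called changes of each list, the 5 most extreme moderated t in each direction, and a few fixed genes. Gene lists, members and tests were chosen with earlier results of these data known. Alternatives were the 6 arrays alone, no time factor, other filters, 2 scalings, the median over probe sets, an intensity trend in the prior and leaving out each array. Some genes on the lists are not analysed here.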

Additional observations from a re-analysis of the deposited data

Results flagged for a closer look

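The hourly change of the Mbnl1 siRNA minus control siRNA difference of Dync1li1 was -0.304 per hour (limma adjusted p = 0.0279, lower in Mbnl1 siRNA cells at 3 of 3 times), so its difference depended on the time at which it was taken, by a test of the change itself. Outside the named genes, 3974 probe sets without a single gene symbol passed the same filter. Of these, 379 were called higher and 471 lower under Mbnl1 siRNA than under control siRNA by limma at an adjusted p under 0.05, in features that no comparison of the report uses.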

How the results depend on the processing

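Without the time factor the calls fell to 878 higher and 1218 lower, and a filter at the 75th percentile, which leaves fewer genes, gave 1436 and 1761, with 25 and 40 past 1 log2 unit. Without any filter 104 genes were called and higher by more than 1. The other settings, leaving out an array included, kept the 4 counts within 1.5 times of those reported. Leaving out 1 array gave 1903 to 2139 higher and 2548 to 2881 lower, 61 to 73 higher and 65 to 106 lower by more than 1, and a difference of Mbnl1 between -2.56 and -2.31. Scaling to equal medians of all tested genes moved the median difference of all genes to 0.03, from a reported -0.02. Of the 242 named genes that were called, 179 kept their call without the time factor and at least 231 in each setting that left out an array. Signs turned only for genes near 0 or with differing probe sets: Hprt lay between -0.007 (without the 5 h control array) and 0.0968 when 1 array was left out, Myf5 between -0.028 and 0.0437 (below 0 without the 2.5 or 5 h array of either arm), Actb was 0.0478 with equal medians, and Qk was 0.0235 in the median over its probe sets. The causes were not tested. Time pairs the arms in every fit except the one without it. The 3 times stand in for replicates, signal near the background limits the fold of dim genes, and no value separates Mbnl1 loss from other effects of its siRNA.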

Other observations

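Metabolic and stress lists held changes under both siRNAs, each set against the same control arrays. Of 35 glutathione and Nrf2 genes 14 rose and 3 fell (5 without the 0 h Mbnl1 siRNA array) under Mbnl1 siRNA, and 14 rose and 0 fell under Cugbp1 siRNA. Of all genes, 24.0% were called higher and 31.0% lower under Mbnl1 siRNA, but 10.5% and 8.67% under Cugbp1 siRNA. Hmox1, heme oxygenase 1, had 10.84, 10.66 and 10.51 in Mbnl1 siRNA cells and 10.00, 9.81 and 9.76 in control siRNA cells. It was higher by 0.81, less than the 1.27 under Cugbp1 siRNA (difference -0.46, adjusted p = 0.00233). Of 15 solute carriers of glucose and amino acids 10 rose and 2 fell, with Slc6a9, a glycine transporter, at 0.76 and Slc7a6 at -1.02. Of 20 glycolysis genes 9 rose and 4 fell, led by Pdk4, the kinase that restrains pyruvate dehydrogenase.

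Pdk4 had 11.26, 10.44 and 10.31 in Mbnl1 siRNA cells and 10.21, 9.22 and 8.88 in control siRNA cells. It rose by 1.24 (adjusted p = 7.12e-06) and fell by 0.58 under Cugbp1 siRNA, a tested difference of 1.81 (adjusted p = 1.67e-06). Several genes went in opposite directions under the 2 siRNAs. Lbp, the lipopolysaccharide binding protein, was lower by 0.70 under Mbnl1 siRNA (adjusted p = 2.89e-05) and higher by 1.20 under Cugbp1 siRNA (adjusted p = 3.01e-05). Cd55, which protects cells from complement, rose by 0.70 under Mbnl1 siRNA (adjusted p = 5.15e-06) and fell by 0.73 under Cugbp1 siRNA (adjusted p = 4.24e-05). H2bc4 rose by 1.15 under Mbnl1 siRNA and by 1.65 under Cugbp1 siRNA; it belongs to a family of near-identical histone genes, so its probe set is uncertain.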
